A study of Mus musculus with 4 samples.

Results

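The genes described here are 10 immediate early genes of the mouse: Fos, Fosb, Jun, Junb, Jund, Ier2, Egr1, Socs3, Dusp1 and Nr4a1. They were taken as a list of names, chosen with earlier results of these data known. All 10 were found by symbol among the 21594 gene symbols of the count matrices. RNA of single pancreatic islet cells was counted in 4 samples from 2-month-old mice. The 2 mutant samples carried both floxed Atf4 alleles and the Cre driver (Atf4F/F; Ins1Cre), the 2 control samples carried the floxed alleles without Cre (Atf4F/F), and neither group was treated. Ins1Cre is expressed from the insulin locus, so recombination is aimed at beta cells, and alpha, delta, PP, endothelial and macrophage cells are not its targets. Every sample was a pool of islets, which the design text puts at 2 males and 2 females and the protocol at 3 to 4 mice. All p-values therefore rest on the spread between pools, 2 in each group, and the spread between single mice was not measured.

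Immediate early genes are transcribed within minutes of a stimulus from factors that are already present in the cell, without new protein synthesis. Calcium entry, growth factors, cytokines, stress kinases and the enzymes and shear of tissue dissociation are all known to induce them, and their messenger RNAs are short-lived. In beta cells, glucose and the cyclic AMP pathway are among the stimuli known to induce Fos and Nr4a1. The 10 genes fall into 4 roles: the AP-1 subunits Fos, Fosb, Jun, Junb and Jund, which pair through leucine zippers; the other nuclear factors Egr1 (a zinc finger protein), Nr4a1 (an orphan nuclear receptor) and Ier2 (a nuclear protein of the early response); Socs3, which blocks cytokine receptors that signal through Janus kinases; and Dusp1, a phosphatase that removes phosphate from MAP kinases. Islets here were isolated with collagenase and dissociated for 5 minutes, and a cell suspension had to be over 90% viable to be used. All samples went through the same steps, so levels in these cells hold the response to isolation together with whatever the cells expressed in the animal, and the data cannot separate them.

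Most of the 10 genes are compact. In GENCODE vM21 on GRCm38 their median gene length was 4102 bases, against 21533 bases for the 17613 protein-coding genes with a count, and 9 of the 10 had 5 or fewer exons (34.6% of those genes). The exceptions in length were Dusp1, whose annotated gene spans 56539 bases, and Nr4a1 with 20527, and the other members had 7356 bases or fewer. Jun, Junb, Jund and Ier2 each had 1 exon, Egr1 and Socs3 had 2, Fos, Fosb and Dusp1 had 4, and Nr4a1 had 8. The pentamer ATTTA, part of the elements that shorten the life of messenger RNAs, was found in the annotated 3′ untranslated region of 9 of the 10, against 65.1% of the 17613 genes, with a median of 2.5 copies against 1, and Ier2 had none. Junb, Jund and Ier2 lie on chromosome 8, Junb from 84974484 to 84978718 (minus strand), Ier2 from 84661331 to 84662852 (minus) and Jund from 70698949 to 70700616 (plus). The gap between Junb and Ier2 was 312 kb. Fos lies on chromosome 12 from 85473890 to 85477273 (plus), Socs3 on chromosome 11 from 117966079 to 117970047 (minus) and Nr4a1 on chromosome 15 from 101254269 to 101274795 (plus).

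The promoters of 4 of the 8 members with a sequence that was used are printed, for genes that differ in what they show: Fos had the highest level, Junb and Socs3 were lower in the mutants, and Nr4a1 went the other way in beta-like cells. Each sequence is the 250 bases before the RefSeq start site (GRCm38.p6), 5′ to 3′ on the strand of the gene. Capitals mark TGACG, the core of the sites bound by CREB and ATF proteins (CGTCA when it is on the opposite strand), and in Socs3 the pattern TTCNNNGAA, the form bound by STAT proteins.
Fos, chr12:85473640-85473889, plus strand: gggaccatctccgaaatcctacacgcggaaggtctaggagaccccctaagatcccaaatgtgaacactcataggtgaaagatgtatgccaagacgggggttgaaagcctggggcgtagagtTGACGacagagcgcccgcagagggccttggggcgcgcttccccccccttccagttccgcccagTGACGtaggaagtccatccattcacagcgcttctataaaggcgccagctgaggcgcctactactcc
Junb, chr8:84978749-84978998, minus strand: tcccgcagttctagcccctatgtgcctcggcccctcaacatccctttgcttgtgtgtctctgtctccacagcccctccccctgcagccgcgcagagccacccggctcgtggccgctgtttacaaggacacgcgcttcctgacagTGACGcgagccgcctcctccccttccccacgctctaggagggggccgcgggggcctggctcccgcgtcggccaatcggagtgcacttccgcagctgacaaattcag
Socs3, chr11:117969367-117969616, minus strand: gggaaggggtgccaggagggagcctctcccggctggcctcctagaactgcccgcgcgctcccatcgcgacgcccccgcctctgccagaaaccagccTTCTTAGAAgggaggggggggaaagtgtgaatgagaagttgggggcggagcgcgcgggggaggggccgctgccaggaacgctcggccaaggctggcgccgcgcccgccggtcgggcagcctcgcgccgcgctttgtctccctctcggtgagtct
Nr4a1, chr15:101266596-101266845, plus strand: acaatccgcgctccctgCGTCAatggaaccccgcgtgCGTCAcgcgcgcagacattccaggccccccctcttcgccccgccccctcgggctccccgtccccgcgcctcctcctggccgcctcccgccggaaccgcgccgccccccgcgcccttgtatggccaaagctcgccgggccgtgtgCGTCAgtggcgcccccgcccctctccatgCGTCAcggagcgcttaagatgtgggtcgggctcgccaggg

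TGACG was searched on both strands and was present in 5 of the 8 members with a sequence that was used (Fos, Fosb, Junb, Dusp1 and Nr4a1), against 17.8% of the 32851 RefSeq starts in windows of the same length. Fos had 2 matches, at positions −129 and −66 from the start site, and Junb had 1, at −106. Nr4a1 had 4 matches and Dusp1 had 3, of which 2 overlap in a palindrome TGACGTCA (1.55% of starts), and 3 or more matches were found in 0.688% of starts. The STAT pattern of Socs3 lay at −154, and 7.02% of starts held that pattern. TGANTCA, the AP-1 site, and TGATGNAA, the composite site of C/EBP and ATF4 proteins, were in 0 of 8 windows (6.75% and 3.45% of starts). The CArG box of serum response factor was in 0 of the 8 as well (1.47% of starts). With shares this low, 0 of 8 cannot set the members apart from other starts, and sites outside the windows were not searched. The RefSeq starts of Socs3, Jund, Nr4a1 and Dusp1 lie 681, 1210, 12577 and 53656 bases from the GENCODE starts, so other promoters of these genes fall outside the windows. The sequence of Ier2 and that of Egr1, on chromosome 18, were not used here.

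After a filter of at least 500 genes and under 20% mitochondrial counts, 6973 cells were used, with 1394 and 1710 cells in mutants 1 and 2 and 1995 and 1874 in controls 1 and 2. Sample totals ran from 13706563 to 17655893 unique molecular identifiers (UMIs), and median UMIs per cell from 5186 to 5780. Clustering, done without the 10 genes and the related lists, gave classes named from their markers: 4025 cells were beta-like, 749 alpha-like and 648 delta-like, and smaller numbers were PP-like (333 cells), endothelial-like (308) and macrophage-like (184). Different clusters made up the beta-like class in the groups: clusters 9 and 14, both with Cdkn1a among their leading genes, held 294 and 361 cells of mutant 1 and 191 and 309 of mutant 2, against 6 and 8 of control 1 and 23 and 6 of control 2. Clusters 10 and 11, led by Plch1 and Npy, held 33 and 9 cells of mutant 1 and 63 and 14 of mutant 2, against 430 and 261 of control 1 and 339 and 239 of control 2. Insulin transcripts made up 30.3% to 35.8% of the UMIs of beta-like cells and still 12.8% to 30.6% in delta-like, PP-like, endothelial-like and macrophage-like cells, classes that are not known to make insulin at such levels. The doublet caller marked 0.315% of cells and cannot be taken to have worked. Pairs of samples shared 391 barcode sequences in all. In the macrophage-like class, a UMI of a B cell marker was found in 33 cells of mutant 1, 5 of mutant 2, 0 of control 1 and 1 of control 2.

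A marker list of another cell type moved with the groups in every class. The 12 acinar markers, genes of digestive enzymes, summed to 38.7 and 42.7 CPM (UMIs per 1000000 UMIs of the sum) in beta-like cells from mutants 1 and 2 and to 158 and 243 CPM in those from controls 1 and 2. All 12 were detected, and each of the 12 was lower in both mutants than in both controls. In alpha-like cells the sums were 50.1 and 58.1 CPM for the mutants against 207 and 294 CPM for the controls. In the other 4 classes both mutants were also lower, with ratios of control to mutant between 1.94 and 3.45. Macrophage markers in beta-like cells summed to 84.2 and 126 CPM for the mutants against 184 and 177 CPM for the controls. Most of that sum was C1qa, at 98.3 CPM over all beta-like cells and 61.0 to 108 CPM in the other classes outside macrophages, while the macrophage genes C1qb, Lyz2 and Tyrobp were at 0.567, 0.283 and 0.165 CPM in beta-like cells. The part of acinar cells and of pool composition in the results below was not tested.

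The targeted gene separated the pools within the mutant group. Atf4, the transcription factor of the integrated stress response, had a beta-like level of 3.50 CPM for mutant 1, 115 CPM for mutant 2, 362 CPM for control 1 and 378 CPM for control 2. Mutant 2 thus held beta-like cells that still made the transcript, and all results in the mutants rest on pools of unequal loss. Its log2 change in beta-like cells was −2.65 ± 0.94 (SE, n = 2 per group; edgeR quasi-likelihood test, adjusted p = 0.234). Outside the targeted cells Atf4 was lower as well in delta-like cells, with 127 and 159 CPM for the mutants against 295 and 273 CPM for the controls (log2 change −0.99 ± 0.15, edgeR adjusted p = 0.00123), and insulin transcripts were 12.8% to 16.5% of the UMIs of these cells.

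All 10 genes were detected in all 6 classes, and beta-like cells were at or near the bottom of the order for most of them. On a scale common to all sums, Fos stood at 1795 ± 368 CPM (SD over 4 samples) in alpha-like cells, 1371 ± 403 in PP-like, 1331 ± 299 in macrophage-like, 1027 ± 181 in endothelial-like, 993 ± 195 in delta-like and 854 ± 162 in beta-like cells. Beta-like cells were the lowest of the 6 classes for Fos, Jun, Ier2, Egr1 and Nr4a1. For each gene, the ranges over samples of neighbouring classes in its order overlapped, so the order is firm only between classes farther apart. Levels are in CPM and are compared here between classes within a gene, not between genes, and the mutants and controls enter the means together.

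Alpha-like cells, which secrete glucagon, were higher than beta-like cells for 10 of the 10 genes in the edgeR quasi-likelihood test with the sample as a block, where 42.4% of all genes tested differed in either direction. The log2 differences ran from 0.59 to 1.44. Ier2 differed most, by 1.44 ± 0.10 (SE), Fos by 1.13 ± 0.08 and Egr1 by 0.99 ± 0.08. Ier2 stood at 214 and 184 CPM in the alpha-like cells of mutants 1 and 2 and at 392 and 340 CPM in those of controls 1 and 2, against 79.9, 74.9, 123 and 157 CPM in the beta-like cells of the same samples. Within every sample the alpha-like value was the higher of the pair. PP-like cells were higher than beta-like cells for 8 of the 10 (7.44% of all genes), all but Socs3 and Dusp1, with log2 differences up to 0.84 ± 0.11 for Ier2. Delta-like cells, which secrete somatostatin, were higher for Fos, Jun, Jund, Ier2 and Egr1 (15.7% of all genes were higher) and lower for Socs3 and Dusp1 (16.1% were lower), by −0.77 ± 0.12 and −0.31 ± 0.08 on the log2 scale.

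In the 2 classes that are no endocrine cells, Dusp1 and Socs3 were among the genes above the beta-like level. Endothelial-like cells were higher than beta-like cells for 8 of the 10 genes, all but Fosb and Jund (14.0% of all genes were higher). Nr4a1 was 2.06 ± 0.15 higher on the log2 scale and Dusp1 1.92 ± 0.15. Nr4a1 stood at 302, 319, 258 and 207 CPM in the endothelial-like cells of mutants 1 and 2 and controls 1 and 2, above the 115, 74.4, 56.7 and 50.2 CPM of the beta-like cells in every sample. Macrophage-like cells were higher for 6 of the 10 (12.5% of all genes): Dusp1 by 1.51 ± 0.22, Socs3 by 1.36 ± 0.25, Junb by 0.91 ± 0.22, Nr4a1 by 0.85 ± 0.25, Fos by 0.74 ± 0.23 and Ier2 by 0.74 ± 0.23. Socs3 had its highest mean there, 129 ± 49.4 CPM (SD, n = 4), against 98.0 ± 28.1 in endothelial-like, 55.7 ± 32.4 in beta-like and 30.005 ± 12.0 in delta-like cells. Fosb and Jund did not pass against beta-like cells in either of these 2 classes. Several of these calls rested on single libraries. In endothelial-like cells, Fos did not pass without mutant 1, without mutant 2 or without control 2 (edgeR adjusted p of 0.116, 0.418 and 0.168), and Egr1 did not pass without either mutant (0.0508 and 0.316). In macrophage-like cells, the call was lost for Fos without control 1 (0.0701), for Junb without mutant 2 (0.0560), and for Ier2 and Nr4a1 without control 2 (0.0555 and 0.279, with the difference of Nr4a1 at 0.50). The call of Dusp1 in delta-like cells was lost without control 2 (0.0759) and with library totals in place of TMM (0.613, with the difference at −0.058), and that of Fosb in PP-like cells without control 1 (0.125). With cells thinned to the same number of UMIs, 5 instead of 8 members passed in endothelial-like cells.

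**Figure D1:**
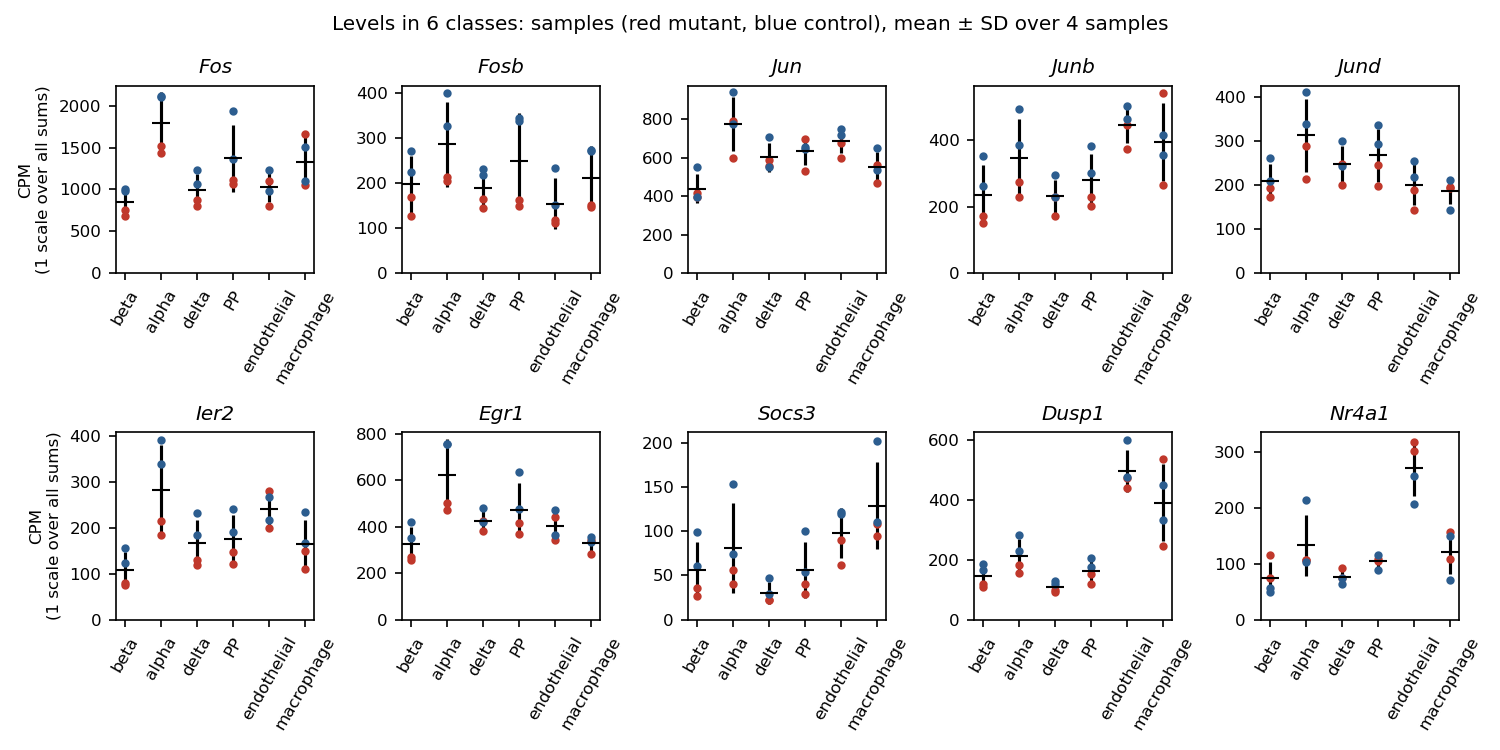
Levels of the 10 genes in the 6 classes, in CPM on a scale common to all sums (y axis), with a point for each sample (red mutant, blue control) and the mean ± SD over 4 samples in black. Alpha-like means lie above beta-like means in all 10 panels, and Nr4a1 and Dusp1 are highest in endothelial-like cells, at 271 ± 50.2 and 498 ± 70.5.

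In beta-like cells, 8 of the 10 genes were lower in both mutants than in both controls and 1 was higher. Of all 13441 genes tested, 22.9% were lower in both mutants and 23.6% were higher. Of the members, 3 passed the edgeR quasi-likelihood test as lower, Socs3, Junb and Ier2 (0.298% of all genes were called lower, 0.707% higher), and 0 passed as higher. Before adjustment, 8 members were lower and 1 was higher at p under 0.05, as were 6.92% and 7.90% of all genes. The median log2 change of the 10 was −0.56, against 0.01 for all genes tested. The list was chosen with earlier results of these data known, so these comparisons with all genes are a description.

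Among the AP-1 subunits, Junb fell. Mutants 1 and 2 stood at 143 and 126 CPM, and controls 1 and 2 at 217 and 288 CPM. The groups did not overlap, and control 2 was the highest of the 4 samples. Its log2 change was −0.91 ± 0.16 (SE, n = 2 per group; edgeR adjusted p = 0.0337). Fos, the most abundant of the 10, stood at 569 and 626 CPM for the mutants against 815 and 823 CPM for the controls, a gap wider than the spread within either group. Its log2 change of −0.45 ± 0.11 did not pass (edgeR adjusted p = 0.110). Fosb had 105 and 140 CPM against 187 and 222 CPM (log2 change −0.74 ± 0.16, edgeR adjusted p = 0.0772), again without overlap. Jund (162 and 144 against 175 and 214 CPM) lay lower in both mutants by a smaller margin, and Jun did not separate the groups: its 332 and 345 CPM in the mutants lay between the controls' 328 and 452 CPM. The log2 change of Jun was −0.20 ± 0.16 and that of Jund −0.35 ± 0.14, with edgeR adjusted p of 0.597 and 0.293.

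The feedback genes were lower in both mutants too. Socs3 stood at 50.8 and 81.3 CPM in controls 1 and 2, above the 30.1 CPM of mutant 1 and the 22.3 CPM of mutant 2. Its drop was the largest among the 10, with the mutants' mean at 0.396 of the controls' mean. On the log2 scale Socs3 fell by 1.34 ± 0.22 (SE, n = 2 per group; edgeR adjusted p = 0.0315). Dusp1 had 91.3 and 99.8 CPM in the mutants against 139 and 151 CPM in the controls (log2 change −0.60 ± 0.12, edgeR adjusted p = 0.0613), so both pools of a group were close together, yet the gene did not pass.

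The other nuclear factors split. Ier2 fell, from 102 and 128 CPM in the controls to 66.7 and 62.6 CPM in the mutants (log2 change −0.83 ± 0.14, SE, n = 2 per group; edgeR adjusted p = 0.0322). Egr1 stood at 215 and 226 CPM for the mutants against 291 and 344 CPM for the controls, without overlap (log2 change −0.53 ± 0.13, edgeR adjusted p = 0.103). Nr4a1 was the exception in direction: controls 1 and 2 stood at 47.2 and 41.1 CPM, mutant 1 at 96.1 CPM and mutant 2 at 62.1 CPM. Both mutants were above both controls, and the mutants differed from each other by more than the controls did. The log2 change of Nr4a1 was 0.84 ± 0.19 and did not pass (edgeR adjusted p = 0.0850).

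The 3 calls in beta-like cells depended on single libraries. Without mutant 1, 0 members passed as lower, and without mutant 2 only Fosb did. Socs3, Junb and Ier2 then had edgeR adjusted p of 0.0561, 0.0857 and 0.0938 without mutant 1, and of 0.0763, 0.0821 and 0.0661 without mutant 2. Their log2 changes were of similar size in these fits, −1.57, −1.01 and −0.88 without mutant 1 and −1.16, −0.84 and −0.81 without mutant 2. Without control 1, 6 members passed as lower (those 3 with Fosb, Egr1 and Dusp1), and without control 2, 4 did (those 3 with Fosb). Nr4a1 passed as higher without mutant 2, without control 1 and without control 2. DESeq2 called 7 members lower, all but Jun and Jund, and Nr4a1 higher. Of the 13441 genes tested, it called 96 lower and 145 higher. The limma-voom fit called 3 members lower and 0 higher. Shares over all genes are not given for limma-voom or for the fits with 1 sample left out. Scaling by library totals instead of TMM moved the median change of all genes from 0.01 to 0.12 and the share of all calls that were higher from 70.4% to 82.0%, and left Socs3 alone among the members.

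**Figure D2:**
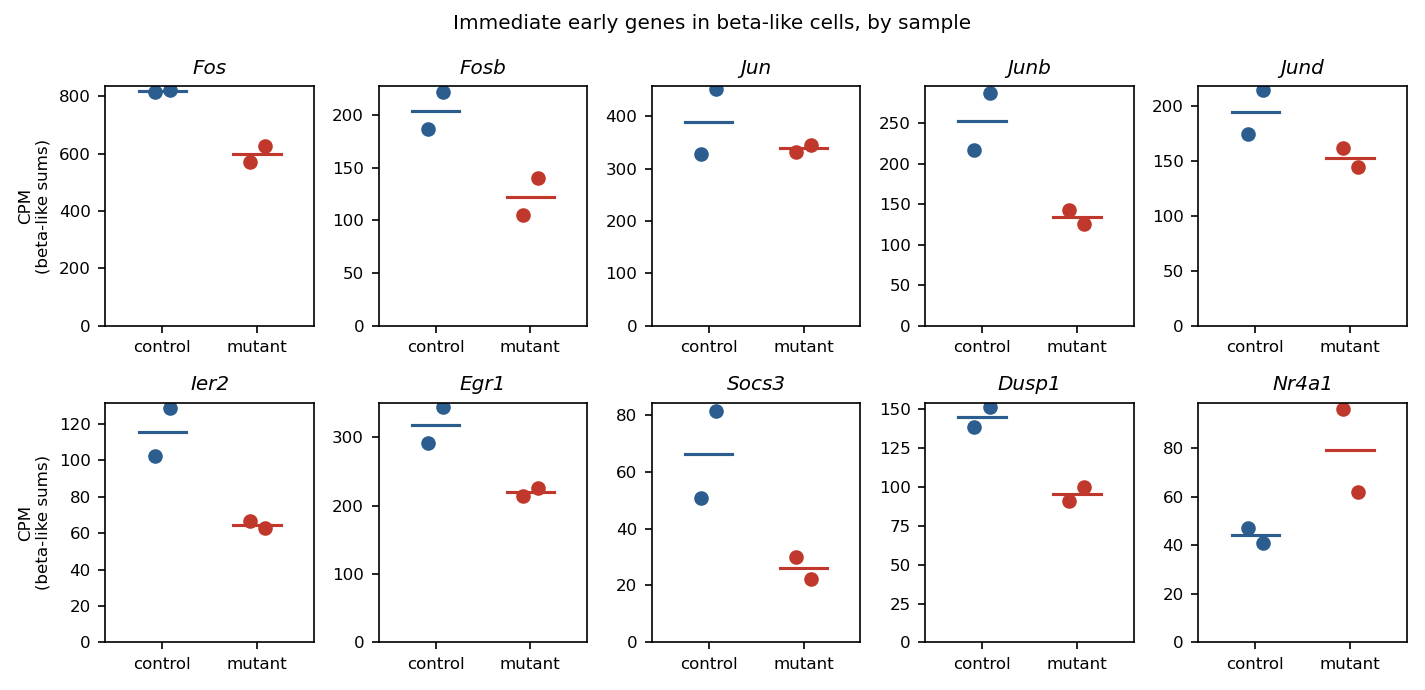
Levels of the 10 genes in beta-like cells, in CPM with TMM scaling (y axis, from 0), with a point for each sample and a line at the mean of each group of 2. For 8 genes both mutant points lie below both control points, for Nr4a1 both lie above (96.1 and 62.1 against 47.2 and 41.1 CPM), and for Jun the groups overlap.

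Alpha-like cells, which the Cre driver does not target, had the same picture apart from Nr4a1. Both mutants were lower than both controls for 8 of the 10 genes (19.9% of the 9045 genes tested), all 10 changes were below 0, and 9 had an unadjusted p under 0.05 (3.81% of all genes were lower at that p). Ier2 and Fosb passed the edgeR test as lower, where 0.111% of all genes did, and 0 members passed as higher (0.0442% of all genes). Ier2 stood at 425 and 370 CPM in controls 1 and 2, against 234 CPM in mutant 1 and 197 CPM in mutant 2 (log2 change −0.89 ± 0.15, SE, n = 2 per group; edgeR adjusted p = 0.0268). Fosb had 222 and 226 CPM against 353 and 434 CPM (log2 change −0.81 ± 0.15, edgeR adjusted p = 0.0447). In both genes the mutants lay close together and below both controls. Fos stood at 1654 and 1534 CPM for the mutants against 2289 and 2297 CPM for the controls, Egr1 had 546 and 506 against 820 and 824 CPM, and neither passed (edgeR adjusted p of 0.150 and 0.0842). Socs3 had the most negative change, −1.28 ± 0.29, but its controls differed from each other, at 80.0 and 167 CPM, and the edgeR adjusted p was 0.115. Junb (−0.81 ± 0.16), Dusp1 (−0.62 ± 0.16) and Jund (−0.59 ± 0.17) were lower in both mutants without passing. Jun (−0.32 ± 0.16) and Nr4a1 (−0.57 ± 0.24) overlapped between the groups, and Nr4a1 had 232 CPM in control 1 and 113 to 117 CPM in the other samples. Without either mutant 0 members passed in alpha-like cells, without control 1 Fosb, Junb and Socs3 did, and without control 2 Ier2 and Nr4a1 did. DESeq2 called 4 members lower, where 5 of the 9045 genes tested were called lower, and limma-voom called 5 members lower. Library totals left Ier2 alone, and the stricter cell filter, the fit with no filter on low counts and thinned cells each left 0.

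In delta-like cells fewer members separated the groups, although the test of the difference from beta-like cells, given further on, passed for 0 members. Both mutants were lower for 6 of the 10 (19.3% of the 10210 genes tested), and Ier2 alone passed as lower (0.118% of all genes). Ier2 had 136 and 124 CPM in the mutants against 193 and 241 CPM in the controls (log2 change −0.74 ± 0.16, SE, n = 2 per group; edgeR adjusted p = 0.0359). That call was lost without mutant 1, mutant 2 or control 2 (edgeR adjusted p of 0.286, 0.304 and 0.178), and DESeq2 made 0 calls. Fos (843 and 904 against 1116 and 1285 CPM), Fosb, Junb, Socs3 and Dusp1 were lower in both mutants without passing, Jun, Jund and Egr1 overlapped, and Nr4a1 was 0.28 ± 0.18 higher on the log2 scale (edgeR adjusted p = 0.715). The median change of the 10 was −0.38.

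In PP-like cells both mutants were lower for 8 of the 10 (16.9% of the 8038 genes tested), all but Jun and Nr4a1, and the median change was −0.56. The edgeR test called 0 members (0.0249% of all genes), and so did DESeq2 and limma-voom. Before adjustment, 8 were lower at p under 0.05, as were 1.97% of all genes. Fosb had the smallest p, with 154 and 163 CPM for the mutants against 350 and 344 CPM for the controls (log2 change −1.12 ± 0.22, SE, n = 2 per group; edgeR adjusted p = 0.123). Each group's pools lay within a few CPM of each other, on either side of a gap of more than the mutants' own level. Socs3 had 42.1 and 28.8 CPM against 54.6 and 103 CPM (−1.17 ± 0.34, edgeR adjusted p = 0.807). Fosb passed with no filter on low counts, and Fosb and Socs3 passed without control 1. The PP-like class itself changed with the way classes were made: of its 333 cells, 96 were also PP-like with the 10 genes kept for clustering, 94 with called doublets kept and 79 with classes taken from hormone shares. Under these settings the changes of Junb (−0.66 ± 0.23) and Jund (−0.51 ± 0.23) turned to between 0.047 and 0.097.

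Endothelial-like and macrophage-like cells gave fewer UMIs and wider errors. In endothelial-like cells both mutants were lower for Fosb, Jund and Socs3, 3 of the 10 (16.2% of the 5891 genes tested), and higher for Nr4a1 (15.9% of genes), at 344 and 353 against 308 and 216 CPM. In macrophage-like cells they were lower for 5, Fosb, Jun, Ier2, Egr1 and Socs3 (14.2% of the 3371 genes tested). The edgeR test called 0 members in either class (0.00% of all genes in both), as did DESeq2 and limma-voom, and Fosb was in each the 1 member at p under 0.05 before adjustment. Fosb in macrophage-like cells had 183 and 188 CPM against 381 and 356 CPM, counts of 78, 25, 23 and 69 UMIs (log2 change −0.98 ± 0.39). Its groups did not overlap in any of the 6 classes, and its log2 change ran from −0.54 in delta-like to −1.12 in PP-like cells. The classes share pools and RNA outside cells, so these are not independent results. Standard errors in these 2 classes were 0.29 to 0.48 for the 10 genes, against 0.11 to 0.22 in beta-like cells.

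**Figure D3:**
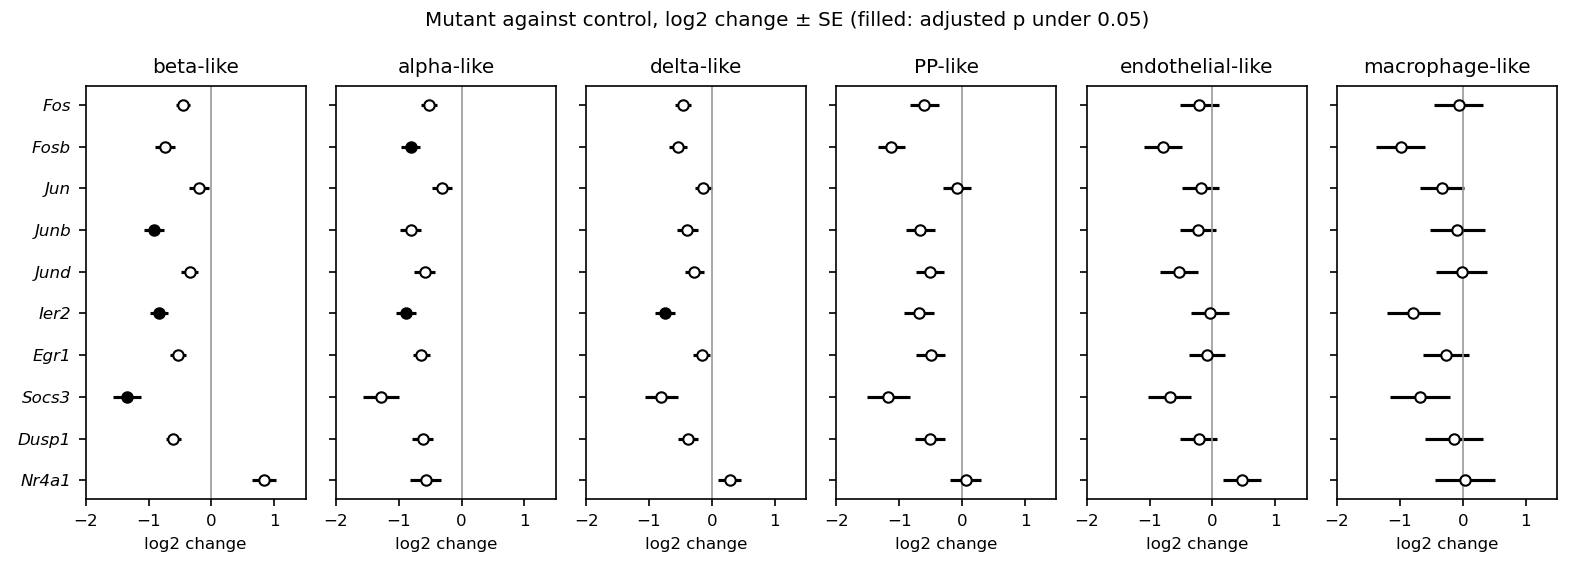
Log2 change of mutant against control (x axis) with its SE for the 10 genes (y axis) in each of the 6 classes, with filled points where the edgeR adjusted p is under 0.05. Filled points are Junb, Ier2 and Socs3 in beta-like, Fosb and Ier2 in alpha-like and Ier2 in delta-like cells, and Nr4a1 lies above 0 in beta-like cells and below 0 in alpha-like cells.

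The difference between classes was tested itself, with the sample as a block. Against alpha-like cells, Nr4a1 alone among the 10 had a different mutant effect in beta-like cells (0.134% of all genes did). The difference was 1.32 ± 0.24 on the log2 scale (SE, n = 2 per group; edgeR adjusted p = 0.0326), from a change of 0.84 in beta-like and −0.57 in alpha-like cells. It rested in part on control 1, whose alpha-like level of 232 CPM was far above the others: without control 1 the difference was 0.83 with an edgeR adjusted p of 0.167, and with DESeq2 it was 1.29 with an adjusted p of 0.160. The other 9 genes differed by −0.11 to 0.23 between beta-like and alpha-like cells, with SEs of 0.12 to 0.21. For these 9, a change much smaller in alpha-like than in beta-like cells was not seen. Against delta-like cells 0 of the 10 passed the edgeR test (0.0902% of all genes did), 4 had an unadjusted p under 0.05, and the lowest adjusted p was that of Junb, with −0.53 ± 0.13 (0.236). Against PP-like, endothelial-like and macrophage-like cells 0 passed (0.00766%, 0.0905% and 0.0527% of all genes did), and before adjustment 1, 3 and 1 were at p under 0.05. Both alternatives, DESeq2 and limma-voom, called 0 in these 4 comparisons. Shares of all genes at an unadjusted p under 0.05 were not counted for these differences, so the member counts at that p have no background.

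The share of cells with at least 1 UMI followed the levels in beta-like and alpha-like cells. Each cell was thinned to 2000 UMIs, and 748 beta-like cells of mutant 1, 836 of mutant 2, 1151 of control 1 and 987 of control 2 were deep enough. Fos was found in 57.6% and 60.8% of these for the mutants against 67.6% and 69.5% for the controls, and unthinned in 86.0%, 83.4%, 88.6% and 90.0%. Junb was found in 23.4% and 20.8% against 28.1% and 38.7%, and Socs3 in 5.48% (exact 95% interval 3.96% to 7.36%) and 4.19% (2.93% to 5.77%) against 7.12% (5.71% to 8.77%) and 12.1% (10.1% to 14.3%). The intervals cover counting error only, and those of Socs3 in mutant 1 and control 1 overlap. Nr4a1 went the other way, with 14.0% and 10.6% for the mutants against 7.30% and 7.09% for the controls. In all, 7 of the 10 shares were lower in both mutants in beta-like cells and 9 of the 10 in alpha-like cells. The count was 4 in delta-like, 5 in PP-like, 5 in endothelial-like and 1 in macrophage-like cells, against 6, 8, 3 and 5 by level. With cells thinned to 1000 UMIs these last counts were 6, 6, 3 and 3, and those in beta-like and alpha-like cells stayed at 7 and 9. Shares of cells were not counted over all genes, so these counts have no background to be set against. A thinned beta-like cell held UMIs of 2.50 and 2.46 of the 10 genes on average for the mutants against 2.75 and 3.31 for the controls, and a thinned alpha-like cell 3.94 and 3.96 against 4.95 and 5.12. No class of these samples is known to lack the 10 genes, so the share that RNA outside cells gives could not be read from one. In its place, barcodes with fewer than 500 genes were summed: they held Fos at 714 and 745 CPM for the mutants against 928 and 903 CPM for the controls. Over the 10 genes and 4 samples, their level was 0.744 to 2.06 times that of the cells used, with a median of 1.02, and 28 of the 40 values of the cells lay inside the 95% Poisson interval of the barcodes. In those barcodes 4 of the 10 genes were lower in both mutants and 1 was higher, against 8.63% and 29.6% of the genes with at least 20 CPM. In the cells used, all classes together and without TMM scaling, these counts were 7 and 1, against 11.3% and 39.5%. Most of the 40 values of these barcodes were thus near those of cells. For Fosb the barcodes stood at 263 and 285 CPM for mutants 1 and 2 and 222 and 351 CPM for controls 1 and 2. The Fosb groups overlapped there, while the cells used had 129 and 153 against 199 and 236 CPM. Nr4a1 in mutant 2 had 172 CPM in the barcodes and 83.5 CPM in the cells used. The part of RNA outside cells in the results was not tested.

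The pools held cells of both sexes, and within a pool the sexes differed by as much as the groups. Beta-like cells were split into those with a UMI of Xist and none of a Y-linked gene and those with a Y-linked UMI and no Xist; each set held 14.7% to 36.6% of a sample's beta-like cells, and the rest could not be assigned. Levels here are in CPM without TMM scaling. In mutant 1, Fos stood at 414 CPM (95% Poisson interval 390 to 438) in the Xist cells and 816 CPM (785 to 847) in the Y-linked cells. In mutant 2 the order was turned, with 820 CPM (782 to 860) and 543 CPM (521 to 565). Control 1 had 713 CPM in Xist and 815 CPM in Y-linked cells, and control 2 had 984 and 663 CPM. The higher set was thus the Y-linked cells in mutant 1 and control 1 and the Xist cells in mutant 2 and control 2. The Fos level of the Y-linked cells of mutant 1 differed from that of the Y-linked cells of control 1 by less than counting error.

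The 10 genes mostly moved together in these splits. In beta-like cells, 10 of the 10 were higher in the Y-linked cells of mutant 1 (median log2 ratio 0.88), 0 in mutant 2 (−0.62), 8 in control 1 (0.21) and 0 in control 2 (−0.48), while 39.4% to 46.9% of all genes with at least 20 CPM were higher. In alpha-like cells the counts were 10, 1, 5 and 0 in the same order of samples, against 42.8% to 57.6% of all genes. Delta-like cells had counts of 10, 3, 9 and 1, against 45.5% to 50.4%. PP-like cells had 8, 3, 9 and 6, against 42.1% to 59.9%. Socs3 in beta-like cells had 12.7 CPM in the Xist cells and 54.0 CPM in the Y-linked cells of mutant 1, 24.9 and 23.1 CPM in mutant 2, 27.2 and 73.8 CPM in control 1, and 108 and 61.2 CPM in control 2. Within Xist cells both mutants lay below both controls, and the gap from mutant 2 to control 1 was small. Nr4a1 had 33.2 and 186 CPM in mutant 1, 61.5 and 59.1 CPM in mutant 2, 39.0 and 52.5 CPM in control 1 and 43.3 and 31.0 CPM in control 2, so that its high level in mutant 1 came from the Y-linked cells and the Xist cells of that pool were below both controls. Tested within a set, Junb alone passed in Xist cells (log2 change −1.09, edgeR adjusted p = 0.0421), and 0 members passed in Y-linked cells, where Socs3, Junb and Ier2 had log2 changes of −0.92, −0.75 and −0.80 with edgeR adjusted p of 0.383, 0.265 and 0.329. A set may hold cells of as few as 1 or 2 mice, so sex, single animals and their handling cannot be told apart.

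**Figure D4:**
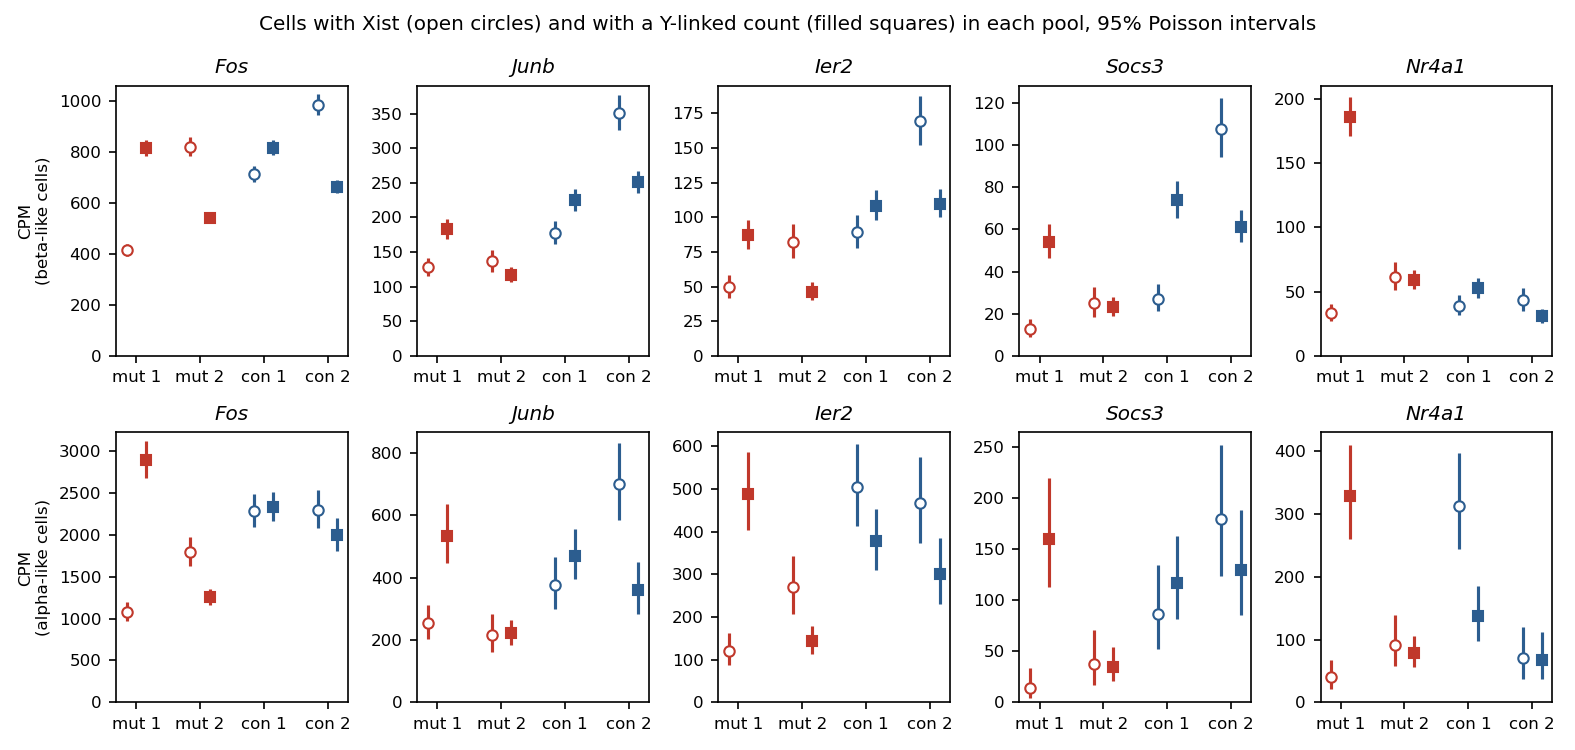
Levels of 5 genes (columns) in beta-like (top) and alpha-like cells (bottom) of each pool (x axis, red mutant, blue control), in CPM with 95% Poisson intervals, for cells with Xist (open circles) and with a Y-linked count (filled squares). In mutant 1 the Y-linked cells are higher in every panel, and in mutant 2 and control 2 the Xist cells are mostly higher.

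Mutant 2 allowed a comparison within a pool, since some of its beta-like cells kept Atf4 transcripts. Among its beta-like cells with over 8000 UMIs, 234 had no Atf4 UMI and 133 had at least 3. Fos stood at 782 CPM (95% Poisson interval 755 to 810) in the cells without Atf4 UMIs and at 528 CPM (500 to 557) in those with 3 or more. Ier2 had 77.1 and 42.0 CPM, Dusp1 136 and 74.7 CPM, Junb 145 (133 to 157) and 119 CPM (106 to 133), and Socs3 27.2 (22.3 to 32.8) and 21.6 CPM (16.3 to 28.0). In all, 9 of the 10 genes were lower in the cells with Atf4 UMIs and Nr4a1 was higher, at 61.5 against 74.3 CPM, with overlapping intervals for Nr4a1 and Socs3. Of all 6146 genes with at least 20 CPM, 47.8% were lower in the cells with Atf4 UMIs. Those cells were deeper, with a median of 18121 UMIs against 15166. Between the pools, 8 of these 9 genes, all but Jun, were lower in both mutants than in both controls. For Junb and Socs3, both sets of mutant 2 cells lay below both controls. The part of Atf4 loss in these levels was not tested. With over 4000 UMIs, and within Y-linked cells alone (66 cells without and 112 with at least 3 Atf4 UMIs, Fos at 702 and 507 CPM), the count was also 9 of 10, against 42.6% and 46.9% of all genes. Of the Xist cells, 95 had no Atf4 UMI and 2 had at least 3, so Atf4 UMIs and the mouse of origin cannot be told apart in this pool, and the comparison, over cells of 1 library, has no replicate and no test.

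**Figure D5:**
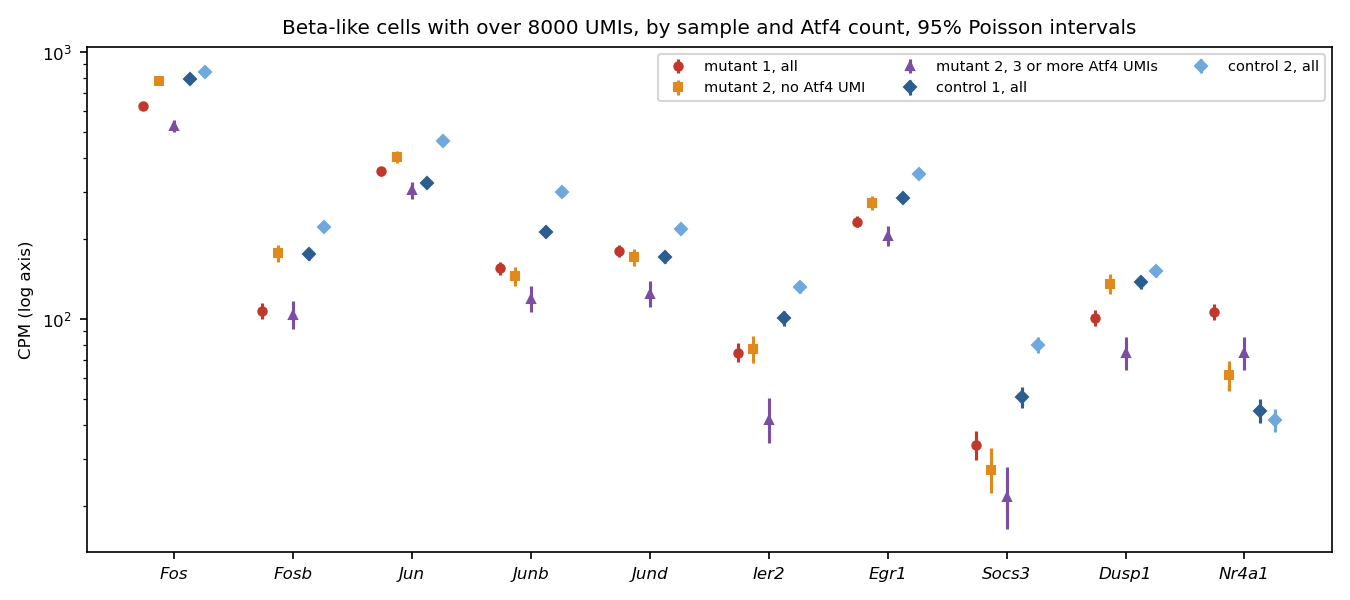
Levels of the 10 genes (x axis) in beta-like cells with over 8000 UMIs, in CPM on a log axis with 95% Poisson intervals, for mutant 1, the mutant 2 cells without and with at least 3 Atf4 UMIs, and both controls. For Fos the mutant 2 cells without Atf4 UMIs (782) lie near control 1 (792) and those with them (528) lie below mutant 1 (630), while for Junb and Socs3 both sets lie below both controls.

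Few related genes passed the test. Of the other members of the AP-1, Egr and Nr4a families, 9 of 12 were tested in beta-like cells and 0 were called by edgeR. Before adjustment, 2 were higher and 1 was lower at p under 0.05. Of 48 other early response genes, 44 were tested, and 1 was called, lower: Cited2, a transcriptional co-regulator, with 57.0 and 64.7 CPM for the mutants against 102 and 91.2 CPM for the controls (log2 change −0.66 ± 0.13, edgeR adjusted p = 0.04999). Before adjustment, 10 of the 44 were lower and 5 higher at p under 0.05, and 18 were lower in both mutants than in both controls (22.9% of all genes were), and their median change was −0.15. Lists of signalling genes, which hold regulators and feedback genes alike, showed 0 calls. The counts were 0 of 21 SOCS and JAK-STAT genes and 0 of 19 MAP kinases and dual-specificity phosphatases. Of 21 SRF and CREB regulators, 0 were called. At an unadjusted p under 0.05 were 3, 3 and 4 genes of these lists, in that order. For the 15 stress genes of the Atf4 branch the count was 0 called, with 9 lower at an unadjusted p under 0.05 and 12 lower in both mutants, and their median change was −0.43.

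Heat shock genes, some of which are known to be induced by dissociation, had members that rose. In alpha-like cells, 2 of 13 rose by the edgeR test, as did 0.0442% of all genes. Of the 13, 8 were higher in both mutants than in both controls, as were 19.6% of all genes. The chaperone Hsp90aa1 had 810 and 713 CPM for the mutants against 460 and 374 CPM for the controls (log2 change 0.87 ± 0.15, SE, n = 2 per group; edgeR adjusted p = 0.0254). Hspa1b, an inducible chaperone, had 721 and 729 CPM against 466 and 370 CPM (0.79 ± 0.15, edgeR adjusted p = 0.0432). In delta-like cells Hsp90aa1 rose by 0.63 ± 0.14 (edgeR adjusted p = 0.0480), where 20 of the 10210 genes tested were called higher. The leave-outs and other fits were read for the 10 genes only. Whether these heat shock calls rest on single libraries was not tested. In beta-like cells 0 of the 13 passed, and before adjustment 3 were higher and 1 was lower at p under 0.05. The 10 genes and the 13 had medians of opposite sign in alpha-like cells, −0.63 and 0.47, against −0.01 for all genes tested. In beta-like, delta-like and PP-like cells the medians of the 13 were 0.14, 0.17 and 0.15, and in endothelial-like cells, with 6 of the 13 below 0, it was 0.0072. The highest median was that of macrophage-like cells, 0.53, with 11 of the 13 tested and 0 called.

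The genes closest to the 10 over classes and samples were found by the correlation of log2(CPM + 1) over the 24 sums of 6 classes and 4 samples, among 9307 genes. These sums share libraries, free RNA and depth, so the values are a description. For Fos they were Btg2 (Pearson r = 0.87), an early response gene that slows proliferation, 2610035D17Rik (0.85), the ribosomal protein genes Rps14 (0.84) and Rps24 (0.84), and Gm5148 (0.83). For Junb they were the actin gene Actg1 (0.82), 9330111N05Rik (0.82), Zfp36 (0.82), whose protein binds AU-rich elements of messenger RNAs, and Amy2a5 (0.79) and 2210010C04Rik (0.78). Amy2a5 is a pancreatic amylase gene of acinar cells. For Socs3 they were Ppp4c (0.85), Zfp36 (0.80), Atp13a2 (0.79), 2210010C04Rik (0.79) and Amy2a5 (0.76). Junb was closer to Socs3 (0.86) and Dusp1 (0.86) than to any gene outside the list, while Fos was closest among the 10 to Egr1 (0.78) and had 0.07 with Nr4a1.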

How the data were processed

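Each of the 4 deposited matrices gives the authors' UMI counts, with a gene symbol per row and a barcode per column. The submitters' processing notes name the mm10 genome and Seurat, without its version. Per the labels' protocols, 10% human K562 cells were added, and tdT-positive and tdT-negative cells shared a sequencing run. The largest values, 4078 to 4093, lie near the 4096 sequences of a 6-base UMI. The 10 genes, the related lists, the markers and the limits for Atf4 UMIs were chosen with earlier results of these data known. Of 11114 barcodes, 6995 had 500 or more genes and a mitochondrial share under 20%, and 22 called doublets were removed (Scrublet in scanpy 1.11.5, Python 3.11.15). Clustering used 1971 variable genes, without the 10 genes and the related lists, 30 principal components, 15 neighbours and Leiden resolution 1, and gave 16 clusters. A cluster was named where at least 2 markers of a class were among its 10 leading genes, and otherwise by the highest summed marker level, a rule set after the clusters had been seen. These names were rebuilt here and may differ from the authors' own. Clusters named acinar (695 cells), stellate (22) and duct (9) were not used. They held 68 cells of mutant 1, 85 of mutant 2, 246 of control 1 and 327 of control 2.

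For each class, summed counts of the 4 samples went into the quasi-likelihood test of edgeR (version 4.0.16 in R 4.3.3, with filterByExpr and TMM), with Benjamini-Hochberg adjustment over all genes tested and a threshold of 0.05. DESeq2 1.42.0 and limma-voom (limma 3.58.1) were alternatives, with leave-outs, other scaling, filters, cell sets, thinned cells, other classes and replicate blocks. The fits were tested on simulated data. Levels in CPM are UMIs per 1000000 UMIs of a sum, with TMM scaling within a class unless said otherwise. Named genes were all 10 members in every class, Atf4, up to 4 genes per related list that passed over all genes, and for Fos, Junb and Socs3 the 5 most alike genes with a mean of at least 10 CPM. Gene models were read from GENCODE vM21 and promoters from RefSeq.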

Additional observations from a re-analysis of the deposited data

Results flagged for a closer look

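The mutant effect on Nr4a1 differed between beta-like and alpha-like cells, by 1.32 ± 0.24 on the log2 scale (edgeR quasi-likelihood test of the difference, adjusted p = 0.0326). In beta-like cells both mutants were above both controls, and in alpha-like cells control 1 stood above the 3 other samples, which lay between 113 and 117 CPM. Over the alternatives tried the difference ran from 0.83 to 1.71, with adjusted p between 1.19e-11 and 0.167, and it did not pass without control 1 or with DESeq2. In mutant 1 the Y-linked beta-like cells had 186 CPM and the Xist cells 33.2 CPM, and in the alpha-like cells of control 1 these values were 137 and 313 CPM, so the high sets came from the Y-linked cells in one case and from the Xist cells in the other. The part of single animals in this difference was not tested.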

How the results depend on the processing

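With 1 sample left out, its group rests on 1 pool that is assumed to vary like the other group. Members called lower then numbered 0 to 6 in beta-like, 0 to 3 in alpha-like, 0 to 3 in delta-like and 0 to 2 in PP-like cells, members called higher in beta-like cells 0 to 1, and the difference called against alpha-like cells 0 to 1 and against delta-like cells 0 to 2. The replicate numbers are not known to pair the samples (correlation of deviations from −0.14 in beta-like to 0.16 in PP-like cells); with a replicate block 5 members were lower and 1 higher in beta-like cells and 2 lower in PP-like cells (Fosb and Socs3), and with the numbers crossed 5 were lower and 1 higher in beta-like and 8 lower in alpha-like cells. In beta-like cells library totals gave 1 lower, DESeq2 7 lower and 1 higher, Xist cells 1 and Y-linked cells 0. In alpha-like cells library totals and a lower clustering resolution gave 1, DESeq2 and kept doublets 4, limma-voom 5, and no filter, the stricter filter and thinning 0. In delta-like cells no filter gave 2, and DESeq2, thinning, members kept for clustering, lower resolution, kept doublets and hormone shares 0. No filter gave 1 lower in PP-like cells and 1 difference against delta-like cells, DESeq2 0 differences against alpha-like cells, and members kept for clustering 1 against macrophage-like cells. Hormone shares in place of clusters left 4 level differences in delta-like and thinning 5 in endothelial-like cells. Lower resolution gave no PP-like class and was not run there.

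Changes that turned in sign had not passed, and those of Junb and Jund in PP-like cells had been −0.66 and −0.51. In PP-like cells, Jun, Junb and Jund turned to 0.048, 0.068 and 0.048 with members kept for clustering and to 0.29, 0.077 and 0.072 with doublets kept, and Junb and Jund to 0.097 and 0.047 with hormone shares. Ier2 in endothelial-like cells turned to 0.15 with members kept for clustering. In macrophage-like cells, Fos turned to 0.017 and 0.033 and Dusp1 to 0.18 and 0.18 with members kept and lower resolution, and without cells with a B cell marker, an alternative chosen after seeing the data, Fos, Junb, Jund and Dusp1 were at 0.032, 0.079, 0.043 and 0.013. Jund there was 0.0082 with library totals, 0.050 with no filter and 0.026 with the replicate block, and Nr4a1 was −0.12 with limma-voom, −0.0057 crossed and −0.14 with the stricter filter. With 1 sample left out, ranges that crossed 0 were −0.42 to 0.047 for Jun in beta-like, −1.002 to 0.041 for Nr4a1 in alpha-like, −0.30 to 0.045 for Jun in delta-like, and −0.31 to 0.13 for Jun and −0.11 to 0.25 for Nr4a1 in PP-like cells. In endothelial-like cells they were −0.31 to 0.23 for Ier2, −0.27 to 0.069 for Egr1 and −0.45 to 0.025 for Dusp1. In macrophage-like cells they were −0.42 to 0.22 for Fos, −0.67 to 0.35 for Junb, −0.20 to 0.29 for Jund, −0.78 to 0.33 for Dusp1 and −0.27 to 0.70 for Nr4a1. The difference of Nr4a1 ran from −0.023 to 0.70 against endothelial-like and from −0.065 to 1.32 against macrophage-like cells. The causes were not tested, apart from the fewer samples or cells that leave-outs, thinning and filters make. Depth limits the last 2 classes, with 134611 UMIs in the smallest endothelial-like and 72708 in the smallest macrophage-like sum.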
